A study of Mus musculus with 4 samples.

Results

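The genes described are 10 transcription factor genes grouped here as regulators of intermediate and superficial urothelial fate. The 10 are Pparg, Gata3, Foxa1, Foxa2, Elf3, Ehf, Klf5, Grhl2, Rxra and Elf5. They were chosen by name, as every probe on the array whose gene name is one of these 10, which gave 14 of 39429 gene probes and 10 of 30010 gene names. Of the 10 genes, 9 had a probe above background and were tested, among 21518 genes in all. Foxa2 was not tested.

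The study measured total RNA of ureters dissected from NMRI mouse embryos at stage E15.5 on 4 arrays with 2 channels. Each array set 1 mutant RNA, called cKO here, against 1 control RNA from embryos of matching sex. The mutants carried Pax2-cre/+ together with Trp63(dN-flox/dN-flox), and the controls carried Trp63(dN-flox/?). Females gave replicates 1 and 2, males gave replicates 3 and 4, and the cKO RNA was in the red channel in replicates 1 and 3 and in the green channel in replicates 2 and 4. All mutants and none of the controls are labelled with Pax2-cre, so loss of ΔNp63 and the cre transgene cannot be told apart. Recombination is limited to cells in which Pax2-cre was active, and the second Trp63 allele of the controls is not given. The labels do not say how many embryos gave each RNA, so the p-values measure the spread between these RNAs.

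The urothelium is layered. Basal cells express p63 and Krt5, intermediate cells lie above them, and superficial cells face the lumen, carry uroplakin plaques and lack p63. PPARγ, a nuclear receptor that binds DNA together with a retinoid X receptor such as RXRα, is known to drive urothelial differentiation, with GATA3 and the pioneer factor FOXA1 at many of the same genes. ELF3, EHF and ELF5 are epithelium-specific members of the ETS family, KLF5 is a zinc finger factor of proliferating and differentiating epithelia, and GRHL2 maintains epithelial junction genes.

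The median signal ran from 382 to 416 for green and from 519 to 617 for red, and the number of arrays limits the precision. Replicates 2 and 4 correlated with r = -0.06 across genes, and replicates 2 and 3 with r = 0.62. The targeted gene Trp63 gave a mean log2 ratio of -1.37 ± 0.18 (SD, n = 4) at its brightest probe. The 3 other Trp63 probes gave -1.26 ± 0.36, -0.81 ± 0.34 and -0.02 ± 0.16, so 1 of the 4 was near 0. Whether a Trp63 probe lies in the deleted part was not analysed here. All 8 basal markers on a list that includes Trp63 fell, and their summed intensity was 22900 to 30700 in control RNAs and 9090 to 10900 in cKO RNAs. All 7 superficial markers, 20 general epithelial markers, 10 mesenchymal and 8 smooth muscle markers were above background. Whole ureters were measured, so fewer cells of a type and less RNA per cell cannot be told apart for any gene here.

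Of the 9 luminal factor genes tested, 1 fell in cKO ureters and 0 rose (limma, adjusted p under 0.05). At an unadjusted p under 0.05, 2 were lower and 2 higher. Over all genes tested, 0.697% were called lower, 0.497% higher and 1.19% in either direction, and 8.03% had an unadjusted p under 0.05. Elf5 was the gene that fell. Pparg, Gata3, Foxa1, Elf3, Ehf, Klf5, Grhl2 and Rxra did not pass. The median log2 ratio of cKO over control was 0.13 over the 9 genes and -0.000244 over all genes. A ratio of the same sign on all 4 arrays was found for 4 of the 9 genes, against 15.3% of all genes. Control and cKO levels did not overlap for 3 of the 9, Pparg, Elf3 and Elf5, against 6.38% of all genes.

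**Figure D1:**
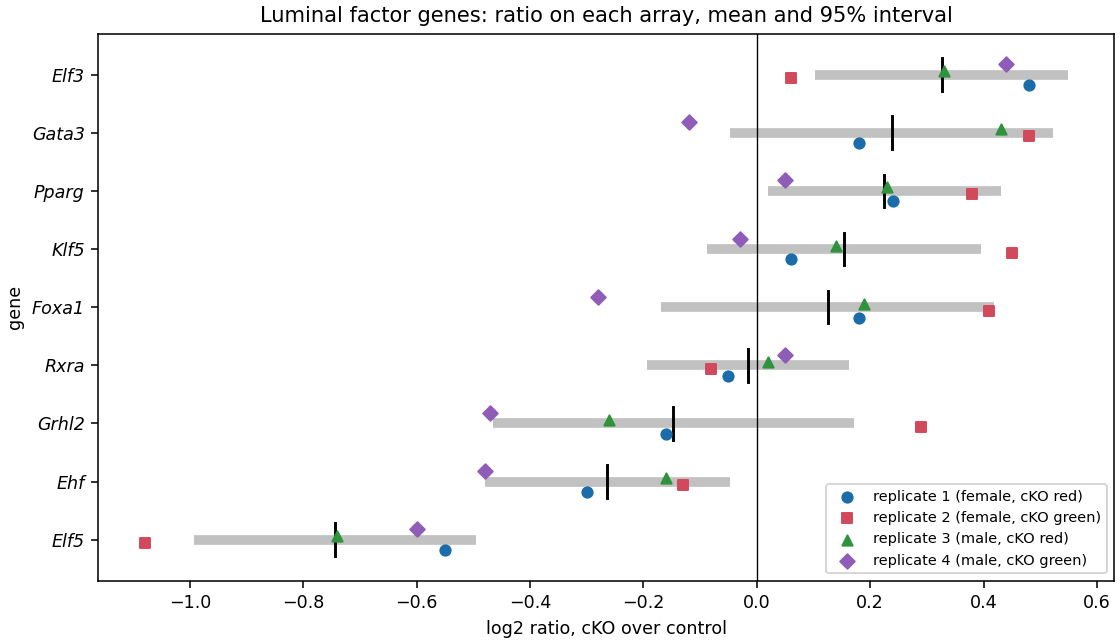
Log2 ratio of cKO over control (x axis) on each of the 4 arrays for the 9 luminal factor genes tested (y axis), with coloured symbols for the arrays, a black bar for the mean and a grey bar for the 95% interval of the limma fit. Elf5 lies at -1.08 to -0.55 on every array, whereas the intervals of Gata3, Foxa1, Klf5, Grhl2 and Rxra include 0.

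Elf5 encodes an ETS factor known from secretory and ductal epithelia such as the mammary gland, and from the early trophoblast. Its 1 probe (A_51_P455866, chromosome 2, 103290958 to 103291017, mm9) gave normalised log2 intensities of 9.99, 10.31, 10.30 and 10.02 in the control RNAs of replicates 1 to 4, and 9.44, 9.23, 9.56 and 9.42 in the cKO RNAs. Every cKO RNA lay below every control RNA, and all spots were well above background. The log2 ratios were -0.55, -1.08, -0.74 and -0.60, a mean of -0.74 ± 0.24 (SD, n = 4). This is a level of 59.7% of control, with a 95% interval of 0.503 to 0.71-fold and adjusted p = 0.0354 (limma). Of all genes tested, 0.823% had a ratio at least as large in size.

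The call depended on the processing. Elf5 missed the threshold with no filter on dim probes (adjusted p = 0.142), with a trended and robust variance (0.102), with the deposited value table as it stands (0.366) and with ratios centred on the 20 epithelial markers (-0.63, adjusted p = 0.0609). With any 1 array left out it passed, with ratios from -0.86 to -0.62. Those fits leave little to estimate the spread from. Without replicate 1 or 3 limma gave every gene 1 variance, so passing there depended on the size of the ratio alone. The epithelial markers had median log2 ratios of -0.11, -0.14, -0.21 and 0.00 in replicates 1 to 4, and the basal markers fell on the same arrays. The part of the basal markers in the Elf5 result was not tested.

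The RefSeq promoters of Elf5 and Elf3 (build GRCm38.p6) are shown because Elf5 was the member that fell and Elf3 is the ETS gene among the 10 with the highest ratio. Each line holds the 250 bases before a transcription start, on the gene's strand, with each CATG in capitals. CATG is the same on both strands and is the usual core of the half-site bound by p53 family factors, p63 among them.
Elf5 start A, chr2:103411848-103412097, plus strand: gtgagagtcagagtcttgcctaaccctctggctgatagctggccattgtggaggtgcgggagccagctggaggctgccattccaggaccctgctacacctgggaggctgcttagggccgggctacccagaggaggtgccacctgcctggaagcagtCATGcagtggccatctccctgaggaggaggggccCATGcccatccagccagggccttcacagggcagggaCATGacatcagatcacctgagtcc
Elf5 start B, chr2:103423818-103424067, plus strand: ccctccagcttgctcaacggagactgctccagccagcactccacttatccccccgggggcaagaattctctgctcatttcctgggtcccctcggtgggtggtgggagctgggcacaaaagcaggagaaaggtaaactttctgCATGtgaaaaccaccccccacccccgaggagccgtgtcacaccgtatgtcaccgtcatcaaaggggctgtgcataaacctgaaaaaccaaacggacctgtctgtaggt
Elf3, chr1:135258473-135258722, minus strand: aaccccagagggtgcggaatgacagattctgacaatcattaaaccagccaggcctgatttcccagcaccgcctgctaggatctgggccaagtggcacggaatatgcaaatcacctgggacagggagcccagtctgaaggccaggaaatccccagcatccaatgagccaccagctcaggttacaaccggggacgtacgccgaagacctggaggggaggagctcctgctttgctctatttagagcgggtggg

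Elf5 start A held 3 CATG and start B 1, and the Elf3 window held 0. Of 7 members found in the RefSeq table, Elf5 and Foxa2 had CATG in a window, in 3 of 13 windows in all. Of all 32851 promoter windows of this length, 53.9% held it. These matches describe the letters of the windows only, and binding was not measured.

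Elf3 and Ehf, the other epithelium-specific ETS genes, had ratios of opposite sign. For Elf3 (A_51_P480241, chromosome 1, 137150328 to 137150387, mm9) the control levels were 12.61, 12.89, 12.83 and 12.52 (normalised log2 intensity) and the cKO levels 13.10, 12.94, 13.15 and 12.96. The lowest cKO RNA, that of replicate 2, was just above the highest control RNA, that of the same array. The log2 ratios were 0.48, 0.06, 0.33 and 0.44, with a mean of 0.33 ± 0.19 (SD, n = 4), a 95% interval of 1.07 to 1.46-fold and adjusted p = 0.294 (limma). Elf3 thus did not pass over all genes. Without replicate 2 it did, at 0.42 (adjusted p = 0.016), in a fit that called 937 of 21518 genes against 257 as reported.

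Ehf was measured by 2 probes on chromosome 2 (mm9). The brighter probe (A_66_P109519, 103106827 to 103106886) gave log2 ratios of -0.30, -0.13, -0.16 and -0.48 and the other (A_55_P2070809, 103114043 to 103114102) -0.31, -0.11, -0.09 and -0.33. Both were below 0 on every array, although control and cKO levels overlapped. The brighter probe's mean was -0.26 ± 0.16 (SD, n = 4), with a 95% interval of 0.717 to 0.967-fold and adjusted p = 0.445 (limma). Without replicate 2 it passed, at -0.35 (adjusted p = 0.0365), in the same fit with 937 genes called.

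The 3 ETS members can be compared within each array, since a constant shift of the array cancels in the difference of their ratios. The loess step acts by intensity and need not cancel. With median centring in its place, the mean log2 ratio of Elf3 was 0.39 and that of Elf5 -0.70. The log2 ratio of Elf3 exceeded that of Elf5 by 1.04, 1.14, 1.07 and 1.04 in replicates 1 to 4, with 1.07 ± 0.05 as mean (SD, n = 4). Elf3 exceeded Ehf by 0.59 ± 0.33 and Ehf exceeded Elf5 by 0.48 ± 0.37, on every array. These 3 pairs were set out after their values were seen. In an exact two-sided sign permutation test each gave p = 0.125, also after Benjamini-Hochberg adjustment, which is the smallest that 4 arrays allow.

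Ehf and Elf5 neighbour each other on chromosome 2, with 2 long non-coding RNA genes between them in the RefSeq gene order and 177 kb between their nearest probes (mm9). The next coding gene after Elf5, Cat, the gene of catalase, gave a log2 ratio of 0.03 ± 0.19 (SD, n = 4), and Apip, the coding gene before Ehf, 0.05 ± 0.10. Abtb2 and Pdhx, farther out, gave -0.06 ± 0.29 and 0.09 ± 0.19. None of these 4 passed the test (limma, adjusted p = 1 for each).

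The genes whose 4 log2 ratios lay nearest to those of Elf5 were Calml3, Slc39a4 and Oit1, with a root mean square difference of 0.07, 0.08 and 0.13 over the 4 arrays. Calml3, a calmodulin-like gene of epithelia, had a mean log2 ratio of -0.78 (adjusted p = 0.0273, limma) and Slc39a4, a zinc importer, -0.76 (adjusted p = 0.0145). Oit1 had -0.76 and did not pass (adjusted p = 0.0872). Means near that of Elf5 follow from how these genes were picked. Over all its kept probes Calml3 had a mean of -0.57, weaker than at the probe used. Calml3 and Slc39a4 missed the threshold with no filter on dim probes (adjusted p = 0.116 and 0.0629) and with a trended and robust variance (0.0757 and 0.0552).

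**Figure D2:**
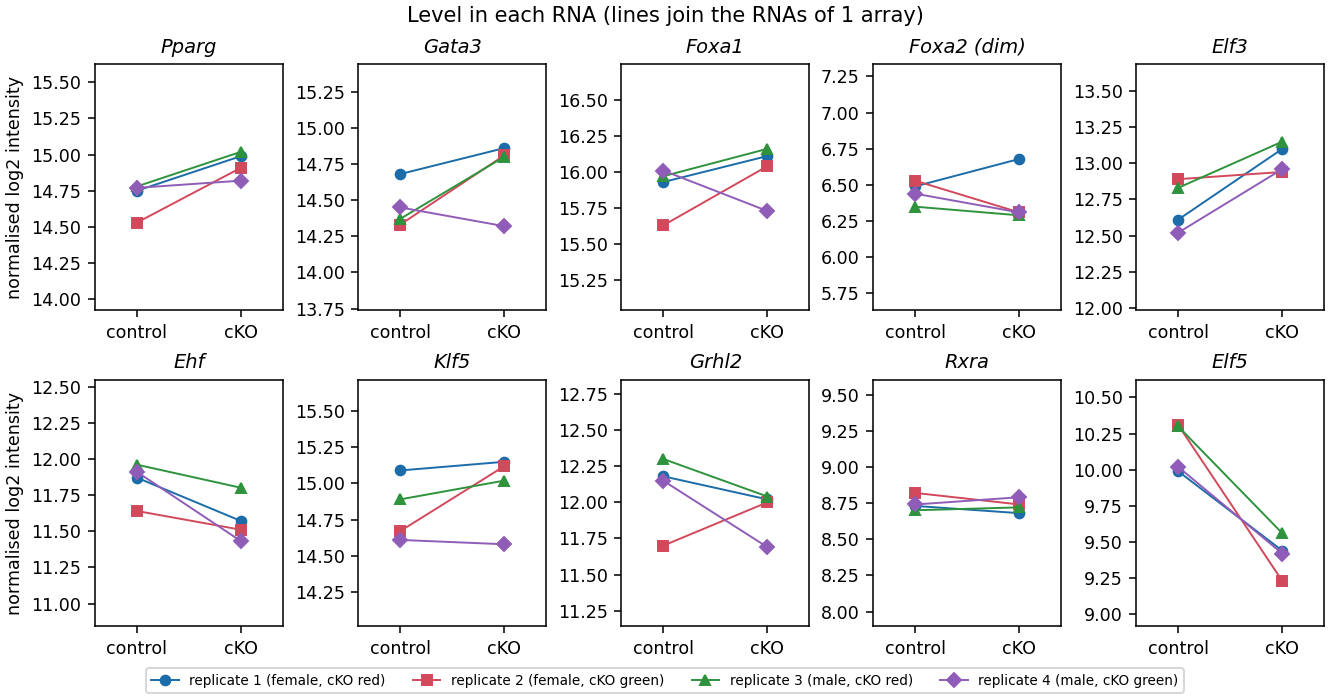
Normalised log2 intensity (y axes, each spanning the same range) of each luminal factor gene in control and cKO RNAs, with a line joining the pair of each array; Foxa2 is shown at its brighter probe, below the filter. Elf5 falls on all 4 lines, Pparg and Elf3 go up on all 4, Foxa1 goes down in replicate 4 alone and Grhl2 goes up in replicate 2 alone.

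Pparg and its partner Rxra did not pass the test. For Pparg (A_51_P106799, chromosome 6, 115440213 to 115440272, mm9) the control levels were 14.75, 14.53, 14.78 and 14.77 and the cKO levels 14.99, 14.91, 15.02 and 14.82 (normalised log2 intensity). All cKO RNAs lay above all control RNAs. The log2 ratios were 0.24, 0.38, 0.23 and 0.05, a mean of 0.22 ± 0.14 (SD, n = 4), with a 95% interval of 1.01 to 1.35-fold and adjusted p = 0.539 (limma). Without replicate 4, Pparg passed at 0.31 (adjusted p = 0.0419), in a fit that called 1601 of 21518 genes against 257 as reported.

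Rxra was the member with the smallest ratio. Its brighter probe (A_55_P2074331, chromosome 2, 27618781 to 27618839, mm9) gave -0.05, -0.08, 0.02 and 0.05, a mean of -0.02 ± 0.06 (SD, n = 4) with a 95% interval of 0.874 to 1.12-fold. The other probe (A_51_P307370, 27615316 to 27615375) gave -0.06 ± 0.08. Both signs occurred among the arrays, and control and cKO levels overlapped.

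Fat cells, another source of Pparg RNA, were represented by 8 markers, of which Adipoq, Plin1, Cidec, Ucp1, Lep and Retn were not above background. The summed intensity of the remaining 2, Fabp4 and Cidea, was 45800 to 52300 in control RNAs and 47100 to 51000 in cKO RNAs. Whether the signal of these 2 came from fat cells was not tested.

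Gata3 and Foxa1 had ratios of both signs. For Gata3 (A_66_P111011, chromosome 2, 9779551 to 9779610, mm9), control levels were 14.68, 14.33, 14.37 and 14.45 and cKO levels 14.86, 14.81, 14.80 and 14.32 (normalised log2 intensity). The groups overlapped, since replicate 4 had a ratio of -0.12 where the others had 0.18, 0.48 and 0.43. The mean log2 ratio was 0.24 ± 0.28 (SD, n = 4), with a 95% interval of 0.968 to 1.44-fold and adjusted p = 0.784 (limma). Of 6 T cell markers on the array, Cd3d, Cd3g and Cd8a were not above background, and the summed intensity of the other 3 was 10100 to 14200 in control and 10500 to 12600 in cKO RNAs. The 9 markers of sympathetic neurons and glia were above background, with sums of 38700 to 56200 in control and 38000 to 49900 in cKO RNAs. Their median log2 ratios were -0.18, -0.45, -0.19 and 0.15 in replicates 1 to 4. The part of either cell type in the Gata3 ratios was not tested.

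Foxa1 (A_55_P2053933, chromosome 12, 58641764 to 58641823, mm9) had control levels of 15.93, 15.63, 15.97 and 16.01 and cKO levels of 16.11, 16.04, 16.16 and 15.73 (normalised log2 intensity), which overlapped. Its log2 ratios were 0.18, 0.41, 0.19 and -0.28, a mean of 0.13 ± 0.29 (SD, n = 4), with a 95% interval of 0.889 to 1.34-fold and adjusted p = 1 (limma). Without replicate 4, Gata3 passed at 0.39 (adjusted p = 0.0241) and Foxa1 at 0.30 (adjusted p = 0.0477). That fit called 1601 genes in all. Without replicate 2, Foxa1 was at -0.05.

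Foxa2, a pioneer factor of endodermal epithelia, was dim. Its 2 probes (A_55_P2067533 and A_55_P2134236, chromosome 2, 147868614 to 147868728, mm9) overlap. The mean raw signal of their spots was 29.3 to 110 over all RNAs, and 0% to 50% of the spots of a probe were well above background in any RNA. The 50% was reached by 1 probe in the control RNA of replicate 1. Both genotypes were below the filter, so no fold is given, and its level was not detectable by these probes in most RNAs.

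Klf5 was measured by 1 probe (A_51_P507290, chromosome 14, 99702656 to 99712388, mm9), whose span shows that it crosses an intron. Its log2 ratios were 0.06, 0.45, 0.14 and -0.03, a mean of 0.15 ± 0.21 (SD, n = 4), with a 95% interval of 0.941 to 1.31-fold and adjusted p = 0.968 (limma). Levels ran from 14.61 to 15.09 in control and from 14.58 to 15.15 in cKO RNAs (normalised log2 intensity), so the groups overlapped over nearly their whole range.

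Grhl2 was measured by 2 probes on chromosome 15 (mm9). The brighter one (A_55_P1981322, 37293139 to 37293198) gave log2 ratios of -0.16, 0.29, -0.26 and -0.47, a mean of -0.15 ± 0.32 (SD, n = 4), with a 95% interval of 0.724 to 1.13-fold and adjusted p = 1 (limma). The other (A_51_P408821, 37239426 to 37239485) gave -0.01, 0.34, 0.22 and -0.65, with the opposite sign in replicate 3. Without replicate 2 the brighter probe passed, at -0.34 (adjusted p = 0.0418), and without replicate 4 its ratio was 0.04. The fit without replicate 2 called 937 genes in all.

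When every kept probe was tested by itself, 1 of the 12 kept probes of these genes passed, that of Elf5 (limma, adjusted p = 0.0363), against 1.01% of all kept probes.

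The arrays differed in a shared way across most of these genes. Replicate 2 had the highest ratio for 6 of the 9 genes and the lowest for 3. Replicate 4 had the lowest for 6 of the 9 and the highest for 1. Over all genes tested, replicate 2 was the highest for 31.8% and the lowest for 30.5%. Replicate 4 was the lowest for 31.3% and the highest for 35.9%, so both arrays were extremes in either direction. The median level of the 9 genes, as a deviation from each gene's mean over the 8 RNAs, was lowest in the control RNA of replicate 2 (-0.22, log2) and in the cKO RNA of replicate 4 (-0.25). It was 0.00 to 0.11 in the other control RNAs and 0.07 to 0.16 in the other cKO RNAs. The 20 general epithelial markers deviated in the control RNA of replicate 2 and the cKO RNA of replicate 4 by 0.04 and -0.10. Superficial markers deviated there by -0.12 and 0.04, mesenchymal markers by -0.10 and 0.00, smooth muscle by -0.11 and 0.02, and endothelium by -0.12 and 0.03. In the control RNA of replicate 2 these last 4 lists were thus also below 0, by less than the luminal factors, and the general epithelial markers were not. Mesenchymal markers were lower in the control RNA of replicate 3 (-0.14). Smooth muscle and superficial markers were lower in the cKO RNA of replicate 1 (-0.17 and -0.13). What the control RNA of replicate 2 and the cKO RNA of replicate 4 share was not tested.

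**Figure D3:**
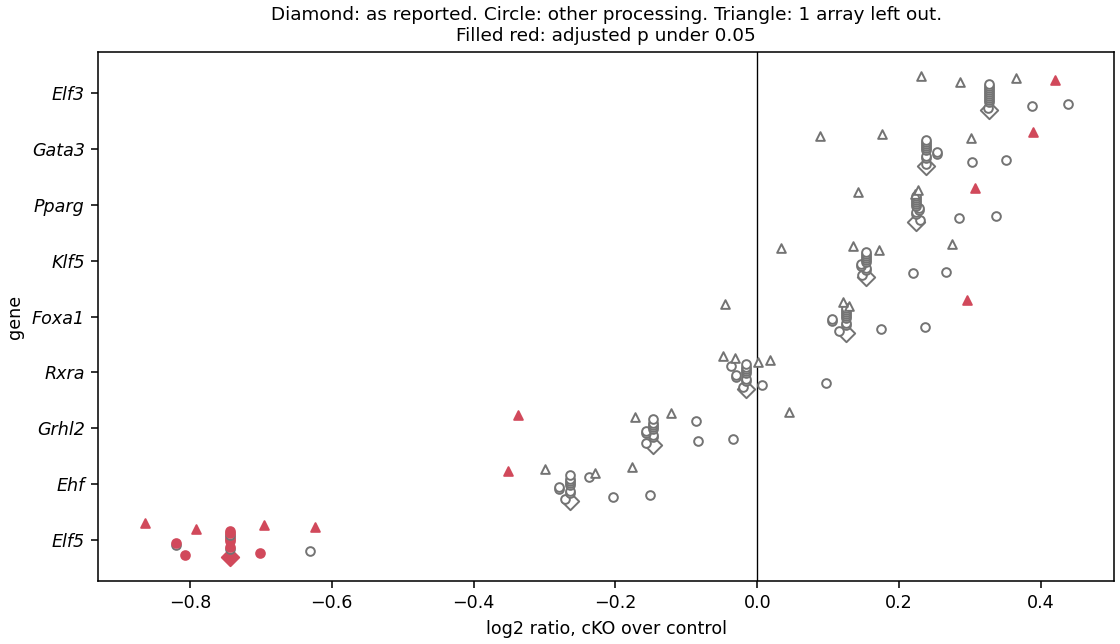
Log2 ratio of cKO over control (x axis) of each of the 9 genes (y axis) as reported and under each other processing or with 1 array left out, with filled red symbols for adjusted p under 0.05 (limma). Elf5 stays between -0.86 and -0.62, and the filled symbols of the other genes are triangles, fits without replicate 2 or without replicate 4.

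The effect did not pass a test of a difference between sexes for any of the 9 genes (limma, cKO by sex, 0 at adjusted p under 0.05 and 0 at an unadjusted p under 0.05), against 0.0697% of all genes. That fit leaves little to estimate the spread from, and the 9 genes shared 1 standard error in it. The largest estimate was that of Grhl2, with mean log2 ratios of 0.07 in females and -0.36 in males, which did not pass. For Elf5 the means were -0.82 and -0.67. The dye coefficient, red over green, was between -0.06 (Grhl2) and 0.10 (Elf5) on the log2 scale.

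Relatives of the 10 factors from the same gene families were counted next. They are a selection, not whole families, and were chosen with earlier results of these data known. Of 18 relatives tested, 3 rose and 1 fell (limma), with a median log2 ratio of 0.04. An unadjusted p under 0.05 was found for 4 higher and 2 lower. Over all genes 0.497% were called higher and 0.697% lower, and 8.03% had an unadjusted p under 0.05. Spdef, an ETS factor of goblet and other secretory cells, rose by 1.02 ± 0.36 (SD, n = 4; adjusted p = 0.038, limma), with control levels of 8.71 to 9.36 and cKO levels of 9.93 to 10.21. Foxa3, the remaining FOXA gene and a factor of liver and gut, rose by 0.97 ± 0.29 (adjusted p = 0.0272), from 7.06 to 7.48 in controls to 8.05 to 8.43 in cKO RNAs. Its ratio was 1.48 with Agilent processed signals. For both, the cKO RNAs lay above all control RNAs. Of 10 gut and liver endoderm markers tested, Ttr rose and 0 fell (limma; unadjusted p under 0.05 for 3 lower and 2 higher), with a median log2 ratio of -0.02. Vil1 was above 0 on all 4 arrays, at 0.56, and did not pass (adjusted p = 0.0949, limma). Afp, Alb and Apoa1 were below 0 on all 4 arrays, at -0.72, -0.71 and -0.52, and did not pass. Cdx2 was not above background, and the summed intensity of the 10 was 20800 to 35200 in control and 25200 to 28700 in cKO RNAs. Their part in the Foxa3 result was not tested.

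Tfcp2l1, a grainyhead-related factor of the collecting duct, rose by 1.01 ± 0.15 (adjusted p = 0.00435, limma), and its other probe gave 0.83 ± 0.31. Of 9 nephric and collecting duct markers tested, Wnt9b rose and 0 fell (limma; unadjusted p under 0.05 for 3 higher and 0 lower), with a median log2 ratio of -0.02, and their summed intensity was 12200 to 17100 in control and 16700 to 18400 in cKO RNAs. Their part in the Tfcp2l1 result was not tested. Grhl3, a grainyhead factor known for barrier formation and superficial urothelial differentiation, fell by 0.68 on the log2 scale, to a mean ratio of -0.68 ± 0.22 (adjusted p = 0.0471). Grhl1 gave -0.37 ± 0.35 and did not pass (adjusted p = 0.548). At the probes used, the grainyhead genes Grhl1, Grhl2 and Grhl3 had negative means, of which that of Grhl3 passed. Grhl1 and Grhl2 were above 0 in replicate 2 (0.11 and 0.29).

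Ppara, Ppard, Rxrb and Rxrg gave log2 ratios of -0.14, 0.01, -0.07 and 0.05, Gata2, Gata4 and Gata6 gave 0.02, -0.04 and -0.11, and Elf1, Elf2 and Elf4 gave 0.13, 0.11 and 0.01. None of these passed. Among Krüppel-like factors, Klf4 gave 0.30 ± 0.19 (adjusted p = 0.347) and Klf3 and Klf6 gave 0.18 and 0.10. Foxa3, Spdef and Grhl3 missed the threshold without a filter on dim probes and with a trended and robust variance, and Grhl3 also with ratios centred on the epithelial markers (adjusted p = 0.181).

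**Figure D4:**
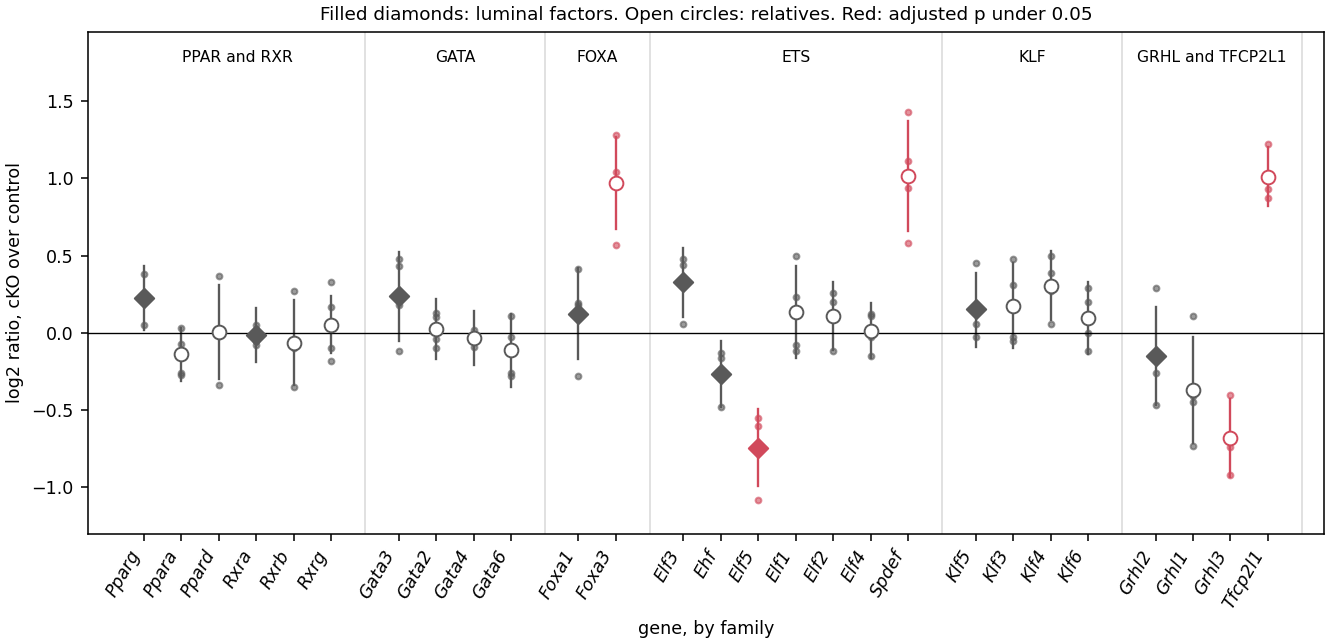
Log2 ratio of cKO over control (y axis) for the luminal factor genes (filled diamonds) and their relatives (open circles), by family (x axis), with the 4 arrays as dots, vertical lines for the 95% interval and red for adjusted p under 0.05 (limma). Foxa3, Spdef and Tfcp2l1 lie near 1, Elf5 and Grhl3 near -0.7.

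Genes on which these factors act were counted from lists, to be read beside 0.497% of all genes called higher and 0.697% called lower. These lists too were chosen with earlier results of these data known. Of 20 known PPAR target genes tested, 2 rose and 0 fell (limma; unadjusted p under 0.05 for 4 higher and 1 lower), with a median log2 ratio of 0.004. The pair was Fabp1 and Fabp3, fatty acid binding proteins, at 3.09 ± 0.24 (SD, n = 4; adjusted p = 0.000874) and 1.19 ± 0.37 (adjusted p = 0.0223). Fabp3 missed the threshold with no filter on dim probes (adjusted p = 0.142) and with a trended and robust variance (0.0531). Acsl1 gave 0.47 ± 0.20 and did not pass (adjusted p = 0.124). Other PPAR targets such as Fabp5, Pdk4, Plin2, Cpt1a, Angptl4 and Fabp4 gave 0.36, -0.24, -0.05, 0.00, -0.10 and 0.00 and did not pass. These were named as examples after their values were seen. Of 16 nuclear receptor partners and coregulators, 0 changed (limma; unadjusted p under 0.05 for 2 higher and 0 lower), with Ppargc1b at 0.26 ± 0.08 (adjusted p = 0.302), Nr2f2 at 0.26 ± 0.22 and Rarg at -0.16 ± 0.15.

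Of 21 superficial cell and uroplakin genes tested, 3 rose and 2 fell (limma), with a median log2 ratio of -0.01. An unadjusted p under 0.05 was found for 7 higher and 6 lower, against 8.03% of all genes in either direction. Krt20, a keratin of superficial cells, rose by 1.92 ± 0.19 (SD, n = 4; adjusted p = 0.00162, limma), Krt18 by 0.50 ± 0.14 (0.0378) and Sprr1a by 0.69 ± 0.20 (0.038). Upk2 fell to a mean log2 ratio of -0.54 ± 0.11 (0.0369) and Upk3bl to -1.74 ± 0.18 (0.00178). Upk1a, Upk1b, Upk3a and Upk3b gave -0.01, -0.18, 0.01 and 0.32 and did not pass; these 4 were also named after their values were seen. Without replicate 1, Krt18 and Upk2 missed the threshold (adjusted p = 0.177 and 0.107), and without replicate 3 likewise (0.159 and 0.0893). Krt18, Upk2 and Sprr1a also missed it with median centring (0.124, 0.0991 and 0.069), with no filter on dim probes (0.0612, 0.08 and 0.143) and with a trended and robust variance (0.261, 0.162 and 0.154). Krt18 and Upk2 missed it with Agilent processed signals (0.0555 and 0.0593), Upk2 and Sprr1a with epithelial centring (0.102 and 0.0522), and Upk2 with no replicate block (0.154).

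Of 17 epithelial genes known to be bound by grainyhead or ETS factors, 1 fell and 0 rose (limma; unadjusted p under 0.05 for 5 lower and 0 higher), with a median log2 ratio of -0.11. The gene that fell was Ppl, the cornified envelope linker periplakin, at -0.59 ± 0.12 (SD, n = 4; adjusted p = 0.0361). Ppl missed the threshold with ratios centred on the epithelial markers (adjusted p = 0.154), with median centring (0.0612), with no filter (0.0968), with a trended and robust variance (0.144) and with no replicate block (0.116). Without replicate 2 or without replicate 4, 3 of the 17 fell, in fits that called 937 and 1601 of all genes. St14, a membrane serine protease, gave -0.29 ± 0.10 (adjusted p = 0.226) and Cdh1, E-cadherin, -0.40 ± 0.26 (adjusted p = 0.302). Most of the 17 genes are also on the list of 20 general epithelial markers. Those 20 had a median log2 ratio of -0.13 (limma, unadjusted p under 0.05 for 7 lower and 3 higher).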

How the data were processed

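The deposited scanner files give an intensity per spot for both channels. Agilent Feature Extraction (10.7.3.1) produced them, per the submitters' processing notes. Other columns, as deposited, flag spots that are nonuniform, saturated or above background. The authors also deposited log2 ratios per probe. Set against the scanner ratios turned to cKO over control, these correlated positively on every array, with slopes of 0.78 to 0.82, medians of 0 and 32.2% to 32.6% of values at exactly 0; their scaling stays unknown. All arrays share 1 slide and 1 scan date.

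Background was corrected with normexp (offset 50), loess was applied to the ratios of each array, and replicate spots were averaged. For the normalised levels in single RNAs and their sums, intensities were also quantile normalised between arrays (Aquantile) after loess. The fit with no replicate block used these levels, and the ratios of the main fit did not use this step. Probes entered the fit when, in 1 genotype, every one of the 4 arrays had a share of 0.5 or more of their spots flagged above background. A gene was represented by its kept probe of highest mean intensity. Symbols were updated through RefSeq (GRCm38.p6). The fit used limma 3.58.1 in R 4.3.3 over all 21518 genes, with a coefficient for cKO over control and an intercept for the dye effect, and was tested on simulated data. The p-values are two-sided with Benjamini-Hochberg adjustment over all genes, and adjusted p under 0.05 was called changed. The genes and lists were chosen with earlier results of these data known. The named genes are the 10 factors, list members that passed or up to 3 with the smallest p, Trp63 and the 3 genes nearest to each factor that passed. Other relatives, list members and chromosomal neighbours fall outside this rule and were named after their values were seen. The alternatives covered background, normalisation, filter, dye, sex, pairing, variance model and probe choice, and each array was left out in turn. One further alternative, the value table without zeros, was chosen after seeing the data.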

Additional observations from a re-analysis of the deposited data

How the results depend on the processing

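Elf5 kept its direction in all 18 fits, between -0.86 and -0.62 on the log2 scale, with adjusted p from 4.63e-06 (with a sex term) to 0.366. With a sex term the 9 genes shared 1 standard error (0.135). The count of luminal factor genes changed was 1 as reported and 0 with no filter, with a trended and robust variance, with ratios centred on the epithelial list and with the deposited value table as it stands. It was 1 to 4 with 1 array left out, 4 without replicate 2 (Ehf, Elf3, Elf5, Grhl2) and 4 without replicate 4 (Elf5, Foxa1, Gata3, Pparg). Over all 21518 genes, 937 were called without replicate 2 and 1601 without replicate 4. The count over all genes was 257 as reported, 86 with no filter, 460 without the dye term, 542 with a sex term, 387 with no replicate block (channels as 8 separate RNAs, without the pairing on the array), 112 with a trended and robust variance, 1 with the value table and 283 to 1601 with 1 array left out. In the value table, 1085 genes are at exactly 0 on all arrays and have no spread, and the relatives and list genes named as changed in the families and target lists all missed the threshold there. Without genes at 0 on any array it gave 333 genes, Elf5 among them (adjusted p = 0.0193). With 1 array left out, the dye term fits 1 array exactly. The spread then comes from replicates 1 and 3 alone without replicate 2 or 4, and from replicates 2 and 4 alone without replicate 1 or 3, where limma gave every gene 1 variance. Rxra changed sign with median centring (0.007), with epithelial centring (0.097) and between arrays left out (-0.049 to 0.018). Foxa1 ran from -0.046 to 0.296 and Grhl2 from -0.337 to 0.044 with 1 array left out. Epithelial centring moved the median of all genes by 0.11.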
